A study of Mus musculus with 49 samples.

Results

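Cytosolic ribosomal proteins are the proteins of the small and large subunits of the ribosome that works in the cytoplasm. The genes were chosen by name alone: symbols beginning with Rpl or Rps followed by a digit or a p, without the S6 kinases and pseudogenes, counted on the longest transcript of each symbol, with a mean RPKM (reads scaled to transcript length and to the mapped reads of the library) of at least 5 over the libraries used. Of 23992 symbols, 86 had such a name and 82 passed, 33 with small subunit and 49 with large subunit names. All 82 were also among the 15566 genes with enough reads to be tested. The 4 symbols below the limit were *Rps4l* (mean RPKM 1.94), *Rpl39l* (0.516), *Rpl3l* (0.041) and *Rpl10l* (0.0004). The lowest levels inside it were those of *Rps19bp1* (13.6), *Rpl7l1* (25.8) and *Rps27l* (67.0). *Rps19bp1* encodes a binding partner of RPS19 and not a ribosomal protein, so it is carried here by its name only.

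The study asked how the tyrosine phosphorylation of STAT5A and of STAT5B shapes the response of CD8+ T cells to IL-2, a cytokine that drives their growth and division. RNA came from splenic CD8+ T cells of adult C57BL/6J mice of 2 lines, labelled STAT5A and STAT5B, each with wild-type (WT) and knock-in (KI) libraries. In the KI mice the tyrosine of STAT5A, or of STAT5B, that is phosphorylated on cytokine signalling was changed to phenylalanine in both copies of the gene by CRISPR/Cas9. The other STAT5 gene is intact in each line, and every cell of the animal carries the change. Cells were collected at 0 hr or after 4, 24 or 48 hr in culture with 500 IU/ml of recombinant human IL-2, and each of the 16 groups of line, genotype and time has 3 libraries. No group was cultured for 4, 24 or 48 hr without IL-2, so that IL-2 and time in culture cannot be told apart. The sources do not say whether the libraries of a group are separate mice, and p-values then measure only the spread between these libraries.

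The cytosolic ribosome is made of ribosomal RNA and, for most of its proteins, a single copy of each, so a cell that makes more ribosomes needs all of them together. Many ribosomal protein mRNAs begin with a C followed by a run of pyrimidines, a terminal oligopyrimidine (TOP) start, through which mTOR and the binding protein LARP1 set how strongly they are translated. The mRNAs are abundant and stable in resting lymphocytes, and their translation can rise without a rise of the mRNA. RNA-seq measures the mRNA alone.

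The transcript starts of 9 members described below are shown because TOP starts are a known feature of these genes; the 9 were chosen after their values were seen, and *Rplp0* and *Rpl38* are among them although their changes at 48 hr lay near the members' median. Of the 82 members, 62 were matched by symbol to RefSeq windows of 250 bases before to 50 bases after an annotated start (GRCm38.p6), with 73 windows between them. A C at the annotated start with 4 further pyrimidines was found in 14 of the 73 windows, 19.2%, against 2.51% of all 32851 windows in the table. Within 10 bases of the annotated start such a run was found in 39 member windows, 53.4%, against 30.7% of all windows. The 30 bases around the annotated start, 15 on each side, are printed below on the gene strand. Capitals mark the pyrimidine run found nearest to the start, and the last pair of sequences has none.
*Rps27*: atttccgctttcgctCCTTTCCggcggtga
*Rps27l*: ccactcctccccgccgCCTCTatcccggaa
*Rpl22l1*: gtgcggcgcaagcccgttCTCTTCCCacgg
*Rps24*: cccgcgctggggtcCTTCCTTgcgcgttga
*Rpl12*: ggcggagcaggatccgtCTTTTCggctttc
*Rpl38*: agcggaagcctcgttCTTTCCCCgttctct
*Rps2*: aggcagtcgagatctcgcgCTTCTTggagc
*Rpl7l1*: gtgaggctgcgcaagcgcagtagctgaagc
*Rplp0*: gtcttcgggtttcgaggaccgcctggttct

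These windows lie at chr3:90213634-90213663 on the minus strand for *Rps27*, chr9:66946071-66946100 for *Rps27l*, chr3:28805493-28805522 for *Rpl22l1* and chr14:24490663-24490692 for *Rps24*, all 3 on the plus strand. *Rpl12* lies at chr2:32961697-32961726, *Rpl38* at chr11:114668565-114668594, *Rps2* at chr17:24720048-24720077 and *Rplp0* at chr5:115559452-115559481, on the plus strand, and *Rpl7l1* at chr17:46782642-46782671 on the minus strand. *Rps27* and *Rps27l*, which encode closely related proteins and moved in opposite directions, both have a pyrimidine run in the printed window, at the annotated start in *Rps27* and 1 base after it in *Rps27l*. A second annotated start of *Rps27l* (chr9:66946398-66946427) and one of *Rps24* (chr14:24490738-24490767), not printed, have no run within 10 bases. *Rpl7l1* rose and has none, and *Rplp0* fell and has none. Searched on both strands of the whole window, CCGGAAG, the core of sites for ETS factors, was in 34.2% of member windows and 8.86% of all windows, AAGATGGC (YY1) in 10.96% and 2.75%, and GGGCGG (the GC box) in 61.6% and 35.7%. TTCNNNGAA, the GAS element that STAT dimers bind, was in 5.48% of member windows, those of *Rpl35*, *Rplp0*, *Rpl4* and *Rpl36al*, against 8.30% of all windows. CACGTG, the E-box that MYC can bind, was in 10.96% and 7.15%, and TATAAA in 9.59% and 13.6%. A match of letters is a description of the sequence and not a measured binding site.

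A pair of libraries stood apart from the rest. The third STAT5A KI replicate at 4 hr held 1028515 reads on the transcripts counted, 5.68% of its mapped reads, and was left out throughout by the rule for the members. The other 47 libraries held 17369112 to 60200653 reads with a median of 41410666. Replicate 2 of the STAT5A WT cells at 4 hr was the shallowest of them, with 44.9% of its mapped reads on the transcripts against 68.7% to 84.4% in the rest. In that library *Rps27* stood at 617 RPKM where its 2 partners had 2062 and 2835, and *Rpl38* at 1754 where they had 725 and 933. Comparisons that use its group are given with and without it. The lowest count of any member in the 47 libraries was 185 reads.

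Many of these genes have processed pseudogenes that are near copies of the mRNA. Stretches of 50 bases, the read length, were searched in the transcripts of the members other than *Rps27rt*. A median of 64.4% had an exact copy elsewhere in the mouse genome, with over 90% for 15 of these members and 0 for *Rps19bp1*. The transcript searched had the length of the one counted for 59 of all 82 members. For the rest, the percentages describe a transcript of another length. *Rpl28* had a copy of every stretch and still stood at 1526 RPKM, so reads with several possible places were not simply absent from these counts; how they were placed is not shown by the files. The values of 52 members other than *Rps27rt* with over 50% of copied stretches are therefore uncertain in level. *Rps27l* (26.1%) and *Rpl7l1* (14.8%) lie below the median. *Rps27* had copies of 49.0% of the stretches of its longest transcript. The *Rps27rt* row holds the same reads, and the *Rps27rt* transcript searched had copies of 91.1%. That transcript has 374 bases against 345 in the counted row. The annotated start of *Rps27rt* lies on chromosome 9, and its counted row on chromosome 3. The 91.1% may therefore not describe the counted row, and the level of *Rps27* stays uncertain too.

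The levels spanned a wide range. The mean RPKM over 47 libraries had a median of 1319 across the 82 members, and the middle 50% lay between 947 and 1716. The highest levels were those of *Rps27rt* (3526), *Rplp1* (3263), which encodes an acidic stalk protein, *Rpl23a* (2610), whose protein sits at the tunnel exit, *Rpl12* (2426), at the base of the stalk, and *Rps29* (2344), a small zinc-binding protein of the 40S head. *Rps27rt* is a retrogene copy of *Rps27* whose row in the files lies on chromosome 3 with the same reads as *Rps27*, the read counts differing by 0.0987% to 0.602% in the 47 libraries. These 2 rows are a single measurement, and *Rps27rt* is not described further, but it stays in every count of 82, where *Rps27* is then counted on 2 rows. At the low end of the true subunits, *Rps15a* (135.7) was counted on a transcript of 5134 bases, far longer than its neighbours, which lowers its RPKM. *Rpl22l1* (144.4), *Rpl22* (150.8) and *Rpl36al* (341) followed. The longest transcript of *Rps27* (2120) is a noncoding variant of 575 bases, and the shorter coding transcript had 3516, the only member with a gap over 1.5 times between its longest transcript and another among 10 members with several.

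The 82 genes took up a large part of every library. In WT cells at 0 hr their reads were 13.3% ± 0.166 (SD, n = 3) of the reads counted for the STAT5A line, and 13.2% ± 0.833 for the STAT5B line. The mean share of STAT5A WT cells was lower at each later time, though the libraries at 4 and 24 hr overlapped: 10.8% ± 0.941 at 4 hr (11.1% over 2 libraries without the one that stood apart), 10.3% ± 0.550 at 24 hr and 9.18% ± 0.260 at 48 hr. In STAT5B WT cells it was 12.4% ± 0.501, 10.8% ± 0.400 and 8.95% ± 0.500 at the same times. By summed RPKM, which weighs each transcript by its length, the share went from 33.7% to 24.1% (STAT5A) and from 33.7% to 23.5% (STAT5B). All 6 WT libraries at 48 hr lay between 8.41% and 9.45% by reads, below all 6 at 0 hr, between 12.3% and 13.7%.

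KI cells began lower and overlapped WT cells at 48 hr. At 0 hr the 3 STAT5A KI libraries held 11.4%, 12.2% and 11.7% on these genes, and the STAT5B KI libraries 11.51%, 12.03% and 10.6%, each set below its WT libraries. At 48 hr the STAT5A KI libraries had 9.29%, 9.82% and 9.12%, overlapping the WT libraries at 9.13%, 8.94% and 9.45%. The STAT5B KI libraries at 48 hr, with 9.84%, 9.76% and 9.37%, overlapped the WT libraries at 9.04%, 9.40% and 8.41%. The fall of the share from 0 to 48 hr was thus smaller in KI than in WT cells of both lines. Shares describe each library and were not tested. In bulk RNA, fewer cells of a type and less RNA per cell cannot be told apart, here and below.

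**Figure D1:**
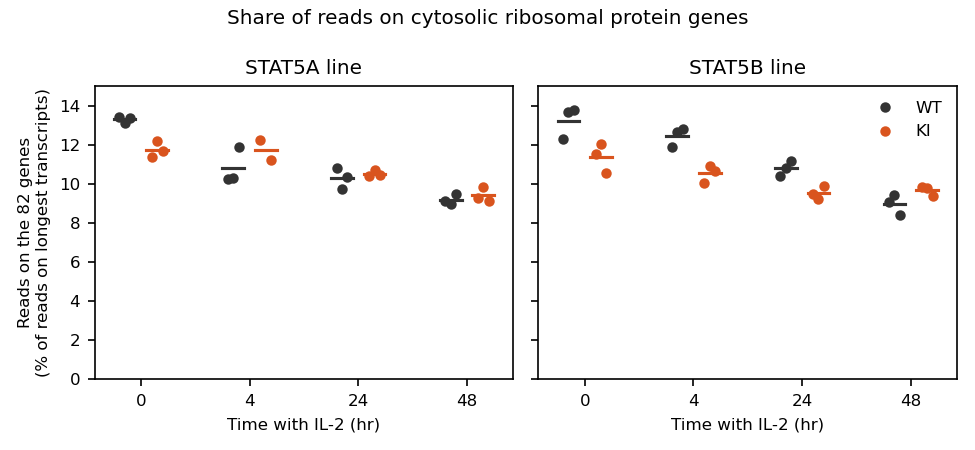
Reads on the 82 ribosomal protein genes as a percentage of reads on the longest transcripts (y axis) against hours with IL-2 (x axis), 1 point for each of 47 libraries, with bars at group means. WT points fall from about 13% at 0 hr to 8.41% to 9.45% at 48 hr, and KI points start lower.

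Relative to other genes, the mRNA of most subunits was lower after IL-2 than at 0 hr in WT cells, by modest amounts. All values are scaled to the reads of each library, so amounts per cell were not measured. In the STAT5A line 66 of 82 members fell and 2 rose at 4 hr (28.9% of all tested genes fell and 29.5% rose), 66 fell and 3 rose at 24 hr (28.9% and 30.1%), and 66 fell and 3 rose at 48 hr (37.7% and 34.1%). The median log2 fold changes of the members were -0.49, -0.42 and -0.45, against medians of 0.01, -0.04 and -0.12 for all genes. In STAT5B WT cells 20 fell and 3 rose at 4 hr (24.5% and 25.1% of all genes), a share of falls close to that of all genes in this fit. At 24 hr 60 fell and 3 rose (30.1% and 29.5%) and at 48 hr 66 fell and 4 rose (36.8% and 33.1%), with medians of -0.18, -0.34 and -0.50 at the 3 times. A gene is said to rise or fall when its adjusted p was at most 0.05 in the quasi-likelihood test of edgeR, adjusted by Benjamini-Hochberg over 15566 genes, and the fold changes are of reads scaled by the trimmed mean of M values (TMM). The 3 times share the 0 hr libraries of their line. On the scale of log2(RPKM + 1), where the median of all genes itself moved at 48 hr by 0.24 (STAT5A) and 0.18 (STAT5B), the members' medians at 48 hr were -0.25 and -0.32, with 69 and 70 of 82 below 0. On that scale the STAT5B median at 4 hr was -0.01, with 44 members below 0 and 38 above, against 0.16 for all genes.

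The STAT5A result at 4 hr depends in size on the library that stood apart: without replicate 2 of the WT cells at 4 hr, 79 members fell and 2 rose (30.02% and 28.3% of all genes), with a median of -0.40. It also depends on the fit: with only the groups compared, or with all 48 libraries, 23 members differed in place of 68. With the replicate block fewer still differed here, and more in the STAT5B line at 4 hr, as given in the last section. The common dispersion, the spread that the fit estimates over all genes and groups, was 0.0187 with that library and 0.0100 without it, in 46 libraries. In 46 libraries 45 members fell and 3 rose at 4 hr in the STAT5B line in place of 20 and 3 (28.9% of all genes fell and 28.6% rose). Leaving out 1 library at a time, the STAT5B counts that moved by over 1.5 times were those at 4 hr, from 23 members that differed to 8 or 6 without WT replicate 2 or 3 at 0 hr and to 5 without WT replicate 1 at 4 hr, and those at 24 hr, from 63 to 40 or 41 without WT replicate 2 or 3 at 0 hr. Larger moves came with all 48 libraries, where 3, 13 and 39 STAT5B members differed at 4, 24 and 48 hr in place of 23, 63 and 70, and 29 and 33 STAT5A members at 24 and 48 hr in place of 69 and 69. By limma on log2(RPKM + 1) the STAT5B counts were 3, 18 and 46, and the STAT5A counts at 24 and 48 hr were 34 and 40. For these fits the share of all genes called is not given, so members cannot be compared with other genes there.

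Markers of other cells moved too between 0 and 48 hr in the same WT libraries. All 8 B cell markers fell in both lines, with summed RPKM of 56.9 to 163 at 0 hr and 13.4 to 39.8 at 48 hr in the STAT5A line, and of 56.3 to 64.6 and 11.496 to 13.9 in the STAT5B line. All 7 erythroid markers fell too, with sums of 62.3 to 356 and 6.40 to 8.02 (STAT5A) and of 38.0 to 117.3 and 4.71 to 8.28 (STAT5B). All 4 CD4 T cell markers fell in the STAT5A line and 3 of 4 in the STAT5B line. The NK markers summed to 211 to 271 RPKM at 0 hr and 444 to 515 at 48 hr in the STAT5A line (6 of 8 rose and 1 fell), and to 285 to 357 and 467 to 507 in the STAT5B line (4 rose and 1 fell). *Nkg7* gave most of each sum, with 322 to 355 RPKM at 48 hr in the STAT5A line, so the sums mainly follow that gene. Of 12 myeloid markers 10 fell and 1 rose in each line, while their sum was 215 to 301 at 0 hr and 439 to 569 at 48 hr in the STAT5A line, and 242 to 323 and 588 to 612 in the STAT5B line, mostly from *Ly6c2*, which activated CD8 T cells also express. Of 6 CD8 T cell markers 2 fell and 1 rose in the STAT5A line and 5 fell in the STAT5B line. The part of such cells in the changes of the members was not tested.

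Genes of both subunits fell. At 48 hr in WT cells of the STAT5A line 27 of 33 small subunit genes fell (median -0.55) and 39 of 49 large subunit genes fell (median -0.39), and in the STAT5B line 28 (median -0.61) and 38 (median -0.46) fell. Leaving out the genes that are paralogues or named only by partner, 65 of 76 standard subunits fell at 48 hr in each line, and *Rps2*, a 40S protein near the mRNA entry channel, was the single one that rose, in the STAT5B line by 0.24 ± 0.0937 (SE, log2, adjusted p = 0.0215), with 0.16 in the STAT5A line (adjusted p = 0.117). Standard subunits without a fall at 48 hr in either line were *Rpl22*, *Rps12*, *Rps26*, *Rpl14*, *Rpl29*, *Rpl24*, *Rpl7a*, *Rpl41* and *Rps2*. Of 82 members, 2 fell and 3 rose by 2-fold or more at 48 hr in the STAT5A line (22.3% and 14.3% of all genes), and 3 fell and 2 rose in the STAT5B line (20.7% and 14.6%).

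*Rps27*, which encodes a zinc finger protein of the 40S subunit, fell the most at 48 hr. Its RPKM in STAT5A WT cells was 2996, 2895 and 2751 at 0 hr, 1897, 1816 and 1578 at 24 hr and 1251, 1293 and 1416 at 48 hr. In STAT5B WT cells it was 2713, 3189 and 3113 at 0 hr and 1278, 1403 and 995 at 48 hr. The libraries at 0 and 48 hr did not overlap in either line, and the log2 fold changes were -1.33 ± 0.18 (adjusted p = 3.33e-08) and -1.47 ± 0.18 (adjusted p = 4.51e-09). *Rps24*, an early binder in 40S assembly that is mutated in Diamond-Blackfan anaemia, followed. It went from 2756, 2675 and 2665 to 1617, 1525 and 1738 RPKM in the STAT5A line, a change of -0.94 ± 0.106 (adjusted p = 6.39e-10). STAT5B WT cells went from 2483, 2851 and 2844 to 1547, 1608 and 1449, a change of -1.002 ± 0.106 (adjusted p = 1.27e-10). Both are genes whose printed starts carry a pyrimidine run.

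The stalk genes encode the arm of the 60S subunit that recruits elongation factors: *Rplp0* is its base, *Rplp1* and *Rplp2* its acidic tips, and *Rpl12* joins it to the body. All 4 fell at 24 and 48 hr in both lines, and at 4 hr in the STAT5A line, where without replicate 2 of the WT cells the changes lay between -0.46 (*Rplp2*) and -0.31 (*Rplp0*) and all 4 still passed the test. None passed the test at 4 hr in the STAT5B line, where their log2 changes lay between -0.23 (*Rplp1*) and -0.15 (*Rplp0*). *Rpl12* had 3044, 3122 and 3352 RPKM at 0 hr and 1955, 1944 and 2122 at 48 hr in STAT5A WT cells. The change was -0.87 ± 0.0977 (adjusted p = 6.31e-10), and -0.88 ± 0.0978 (adjusted p = 3.94e-10) in the STAT5B line. *Rplp1* changed by -0.65 and -0.77, *Rplp2* by -0.58 and -0.76 and *Rplp0* by -0.48 and -0.48 at 48 hr in the STAT5A and STAT5B lines. At 48 hr the call of *Rplp0* was lost in both lines by limma on log2(RPKM + 1) (-0.27, adjusted p = 0.277, and -0.30, 0.217) and with all 48 libraries (0.217 and 0.215), and that of *Rplp2* in the STAT5A line was lost in the same fits (0.186 and 0.124).

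The members that rose were of another kind. *Rps27l* encodes a paralogue of RPS27 and is known as a target of p53. Its RPKM in STAT5A WT cells was 29.2, 23.4 and 26.9 at 0 hr, 42.2, 60.1 and 42.1 at 4 hr, 85.7, 82.2 and 82.03 at 24 hr and 127.7, 157.5 and 142.6 at 48 hr. In STAT5B WT cells it was 23.9, 28.0 and 27.9 at 0 hr, 49.6, 49.5 and 50.5 at 4 hr, 93.5, 93.7 and 103 at 24 hr and 155, 161 and 140 at 48 hr. Each time stood above the one before it in every library of both lines, and the changes at 48 hr were 2.22 ± 0.172 (adjusted p = 4.29e-14) and 2.34 ± 0.173 (adjusted p = 1.1e-14).

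*Rpl7l1* encodes a relative of RPL7 that is found on pre-60S particles rather than on working ribosomes. It went from 14.1, 14.3 and 16.6 RPKM at 0 hr to 39.0, 45.7 and 45.6 at 48 hr in the STAT5A line, a change of 1.33 ± 0.0748 (adjusted p = 5.9e-18). In the STAT5B line it went from 14.996, 15.5 and 15.9 to 48.3, 46.2 and 43.2, a change of 1.39 ± 0.075 (adjusted p = 1.4e-18). *Rpl7* itself had 1398, 1359 and 1349 RPKM at 0 hr and 1197, 1243 and 1259 at 48 hr in the STAT5A line, and fell there by 0.36 on the log2 scale (SE 0.0709, adjusted p = 3.03e-05) and in the STAT5B line by 0.30 (SE 0.0709, adjusted p = 0.00029). *Rps19bp1* rose too, from 9.04, 9.98 and 9.38 to 20.1, 23.1 and 22.5 RPKM in the STAT5A line (1.003 ± 0.0982, adjusted p = 2.06e-11) and by 0.99 in the STAT5B line. The genes that rose in both lines at 48 hr were these 3, none of them a gene of a standard subunit.

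The ratio within a library gives the same picture without any scaling between libraries. *Rps27l* was 0.921% ± 0.0964 (SD, n = 3) of *Rps27* by RPKM in STAT5A WT cells at 0 hr and 10.8% ± 1.18 at 48 hr, and 0.885% ± 0.00853 and 12.6% ± 1.34 in STAT5B WT cells. *Rpl7l1* was 1.10% ± 0.117 of *Rpl7* and then 3.52% ± 0.228 for STAT5A, and 1.119% ± 0.0693 and then 3.61% ± 0.109 for STAT5B WT cells. *Rpl36al*, a retrogene copy of *Rpl36a*, was 33.0% ± 1.09 of its partner at 0 hr and 46.6% ± 1.87 at 48 hr for STAT5A, and 30.5% ± 0.566 and 49.3% ± 2.19 for STAT5B WT cells. *Rpl22l1*, the paralogue of *Rpl22* that substitutes for it, was lower beside it at 4 and 24 hr. In the STAT5B line it was 109.8% ± 12.3 of *Rpl22* at 0 hr, 87.5% ± 7.23 at 4 hr, 90.6% ± 12.6 at 24 hr and 112.5% ± 12.8 at 48 hr. STAT5A WT cells had 113.3% ± 7.51 at 0 hr, 83.02%, 16.1% and 83.7% in the 3 libraries at 4 hr, 85.7% ± 10.6 at 24 hr and 106.3% ± 9.82 at 48 hr. *Rpl22l1* fell at 4 hr in the STAT5A line by 1.16 on the log2 scale (SE 0.181, adjusted p = 1.01e-06), by 0.88 without the library that stood apart (adjusted p = 5.85e-06), and in the STAT5B line by 0.54 (SE 0.178, adjusted p = 0.0111). It was still lower at 24 hr, by 0.74 (adjusted p = 0.000535) and 0.47 (adjusted p = 0.0225). At 48 hr its values of -0.37 (adjusted p = 0.0621) and -0.21 (adjusted p = 0.286) did not pass the test. Its 3 WT libraries in the STAT5A line at 4 hr were at 105.6, 32.0 and 125.96 RPKM, against 197, 175 and 195 at 0 hr, the lowest being the library that stood apart.

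**Figure D2:**
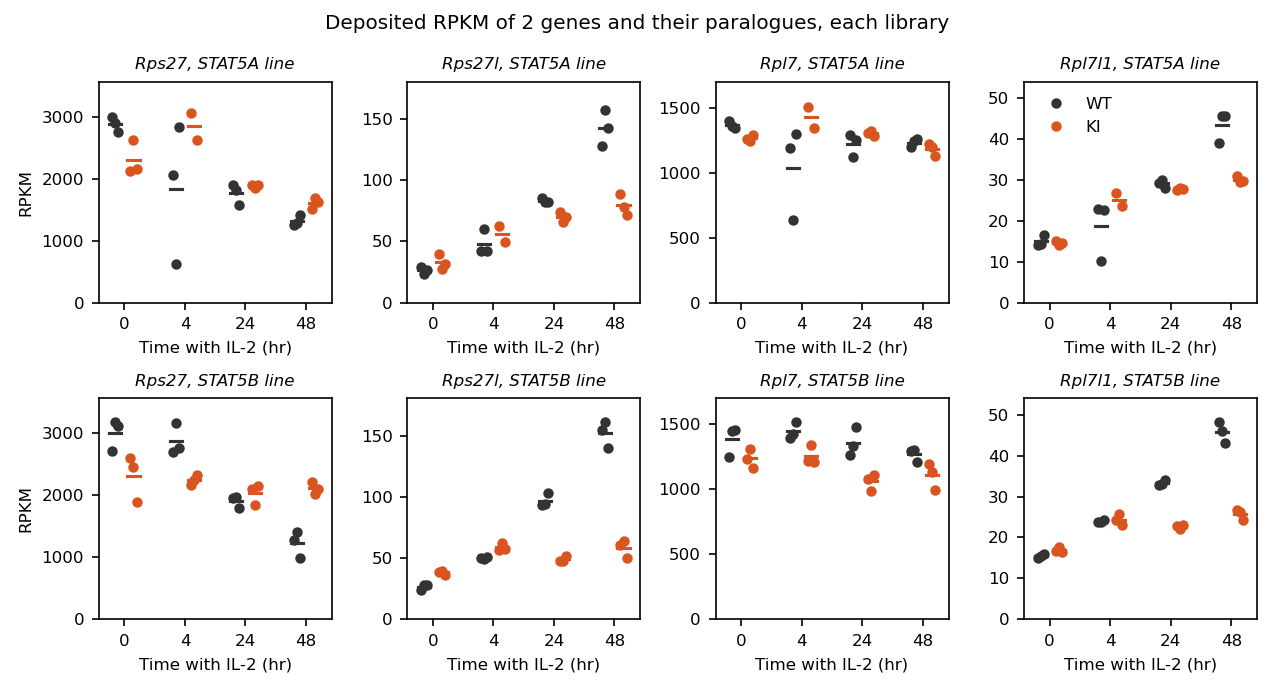
RPKM (y axis, linear from 0) of Rps27, Rps27l, Rpl7 and Rpl7l1 against hours with IL-2 (x axis) in the STAT5A line (upper row) and the STAT5B line (lower row), 1 point for each of 47 libraries with bars at group means, WT dark and KI orange. Rps27 falls and Rps27l rises in WT cells, and KI cells at 48 hr lie above WT for Rps27 and below WT for Rps27l.

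**Figure D3:**
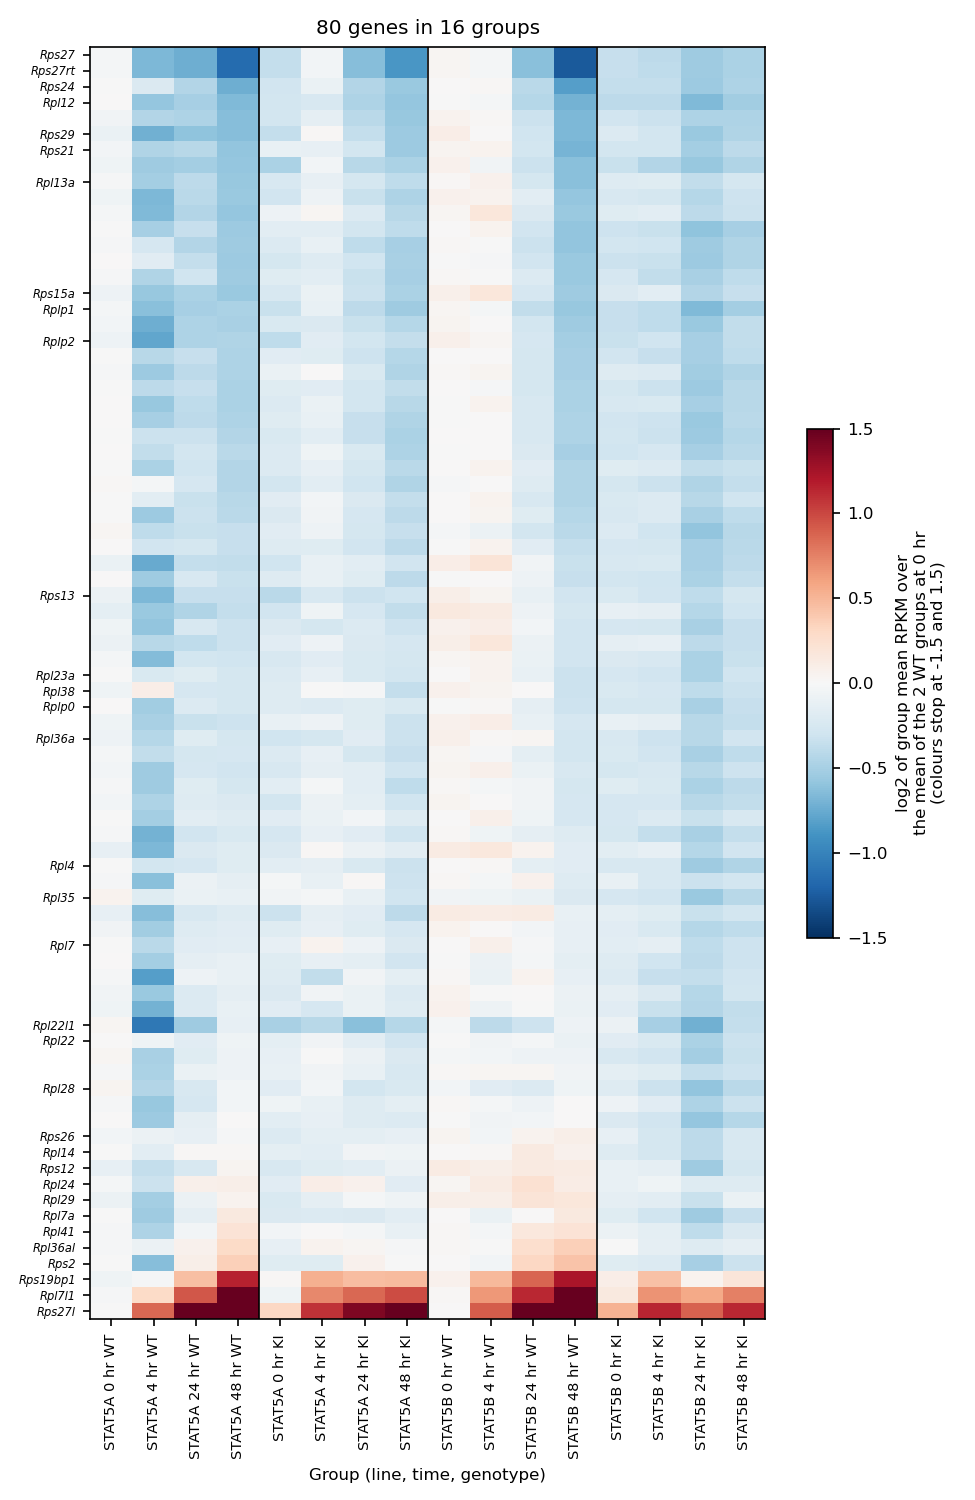
log2 of each group's mean RPKM over the mean of the WT groups at 0 hr for 80 of the 82 genes (rows, labelled where the text names the gene) in 16 groups (columns), blue lower and red higher, with colours stopping at -1.5 and 1.5. Most rows turn blue with IL-2 in WT cells, with Rps27 and its shared-read row at the top and Rps19bp1, Rpl7l1 and Rps27l red at the bottom.

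Other genes of the translation machinery were set beside the members from fixed lists. Among subunits that the name rule does not match, *Rpsa* fell at 48 hr by 0.41 in STAT5A and 0.46 in STAT5B WT cells, *Fau* by 0.69 and 0.75 and *Gnb2l1* (RACK1) by 0.49 and 0.53. Of 19 genes with TOP mRNAs outside the ribosome, at 48 hr 9 fell and 8 rose in STAT5A WT cells, against 8 and 8 in STAT5B WT cells. *Tpt1*, the translationally controlled tumour protein, fell by 1.14 on the log2 scale (SE 0.0676, adjusted p = 2.40e-17) and by 1.15 in the STAT5B line, and *Eef1a1*, the main elongation factor, by 0.55 and 0.52. *Npm1*, a nucleolar chaperone, rose by 0.74 and 1.01, and *Nap1l1*, a histone chaperone, by 0.84 and 1.09.

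The makers of ribosomes rose where the subunits fell. Of 30 ribosome assembly and RNA polymerase I genes, 29 rose at 48 hr in each line of WT cells, with medians of 1.06 and 1.11. *Ncl* (nucleolin) rose by 1.03 and 1.28, *Fbl* (fibrillarin, the rRNA methylase) by 0.81 and 0.97 and *Polr1b*, the second subunit of RNA polymerase I, by 1.49 and 1.51. Of 76 mitochondrial ribosomal proteins, whose ribosome makes only the respiratory chain subunits encoded in mitochondria, 73 (STAT5A) and 72 (STAT5B) rose, with medians of 0.98 and 1.03. Their share of reads went from 0.185% ± 0.00574 to 0.343% ± 0.0113 for STAT5A, and from 0.190% ± 0.0103 to 0.352% ± 0.00874 for STAT5B WT cells. Their promoters had CCGGAAG in 34.7% of 75 windows, close to the members' share, but a pyrimidine start at the annotated base in 0 of 75. Within 10 bases of the annotated start, such a run was found in 41.3% of these windows, against 30.7% of all windows. Among 7 chaperones that escort single ribosomal proteins, 5 rose and 1 fell in each line, and *Grwd1*, which escorts RPL3, rose by 1.40 in the STAT5A line.

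Among 10 genes that regulate ribosomal protein output, 8 rose and 1 fell at 48 hr in STAT5A WT cells, against 6 and 2 in STAT5B WT cells. *Myc*, the main driver of ribosome production, had 43.2, 53.5 and 20.3 RPKM at 0 hr and 94.2, 96.9 and 94.6 at 48 hr in STAT5A WT cells, and 21.7, 19.1 and 21.2 and then 93.0, 90.1 and 94.8 in STAT5B WT cells. It rose by 1.08 ± 0.176 (adjusted p = 1.40e-06) and by 1.99 ± 0.181 (adjusted p = 3.08e-12). *Larp1* rose by 1.08 and 1.02 and *Eif4ebp1*, the inhibitor of cap-dependent translation that mTOR controls, by 1.49 and 1.83. Of 3 genes whose proteins sit on idle ribosomes, *Serbp1* rose by 0.84 and 1.04 and *Habp4* fell by 0.48 and 0.77. Of 4 genes of the ribosomal protein, MDM2 and p53 circuit, *Trp53* rose by 1.27 and 1.21, *Mdm2* fell by 0.79 and 0.56, and *Cdkn1a*, a p53 target, had -0.27 (adjusted p = 0.25) and 0.40 (adjusted p = 0.093).

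**Figure D4:**
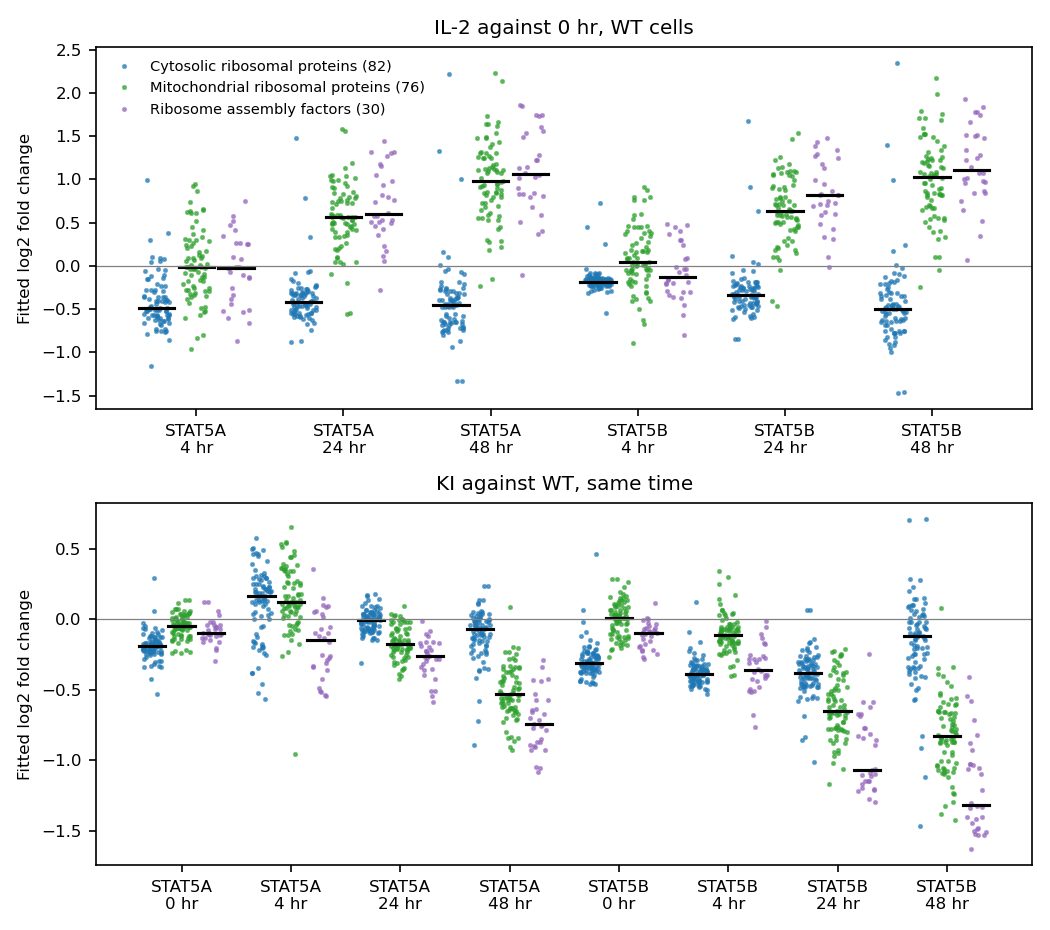
Fitted log2 fold changes (y axis) of 82 cytosolic ribosomal proteins, 76 mitochondrial ribosomal proteins and 30 ribosome assembly genes, 1 point a gene with bars at medians, for IL-2 against 0 hr in WT cells (upper panel) and KI against WT at the same time (lower panel). At 48 hr in WT cells the medians are -0.45 and -0.50 for the cytosolic genes and about 1 for both other lists; in STAT5B KI cells at 48 hr they are -0.12, -0.83 and -1.32.

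KI cells were next compared with WT cells of the same line at each time. The mutated genes are point changes, so their mRNA does not check the labels: *Stat5a* had 19.5, 19.0 and 20.5 RPKM in STAT5A WT and 17.9, 20.6 and 21.5 in STAT5A KI cells at 0 hr, and *Stat5b* 28.3, 29.7 and 29.5 in STAT5B WT and 26.8, 27.2 and 27.01 in STAT5B KI cells. Neither passed the test at 0 hr. The CD8 T cell markers were high in every group, with 651 to 1992 summed RPKM over the 6 genes found of 7 listed, and moved with the genotype. At 0 hr their sums were 1454 to 1599.8 in WT and 1189 to 1252 in KI cells of the STAT5B line, all 6 lower by the test, and 1181 to 1447 and 1061 to 1122 in the STAT5A line, 2 lower. At 48 hr they were 1306 to 1345 in WT and 1777 to 1991 in KI cells of the STAT5B line, and 1327 to 1471 and 1816 to 1992 in the STAT5A line, with 5 higher in each.

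Markers of other cells moved with the genotype too. All 8 B cell markers were higher in STAT5B KI cells at every time, and their summed RPKM was 56.3 to 64.6 in WT and 228 to 234 in KI cells at 0 hr, and 11.496 to 13.9 and 125.7 to 132.2 at 48 hr, with *Cd79a* the most abundant in KI cells (82.9 and 44.8). All 7 erythroid markers were also higher, with 38.0 to 117.3 in WT and 394 to 979 in KI cells at 0 hr and 4.71 to 8.28 and 110.9 to 206 at 48 hr, *Hbb-bs* being the most abundant in KI cells (177 and 50.6). Of 12 myeloid markers 10 were higher and 1 lower in STAT5B KI cells at 48 hr, and all 4 CD4 T cell markers were higher, with 3.40 to 4.01 summed RPKM in WT and 17.2 to 17.7 in KI cells. Of 8 NK markers 3 were higher and 3 lower. In the STAT5A line at 48 hr all 8 B cell markers were higher, with 13.4 to 39.8 in WT and 102.4 to 122.3 in KI cells, and the erythroid sums were 6.40 to 8.02 and 17.9 to 22.5, with no erythroid marker past the test. At 0 hr the B cell sums in that line were 56.9 to 163 in WT and 249 to 307 in KI cells, with 3 of 8 markers higher. No defining marker of these lists was at 0 in every library of a KI group. The part of such cells in the results was not tested.

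**Figure D5:**
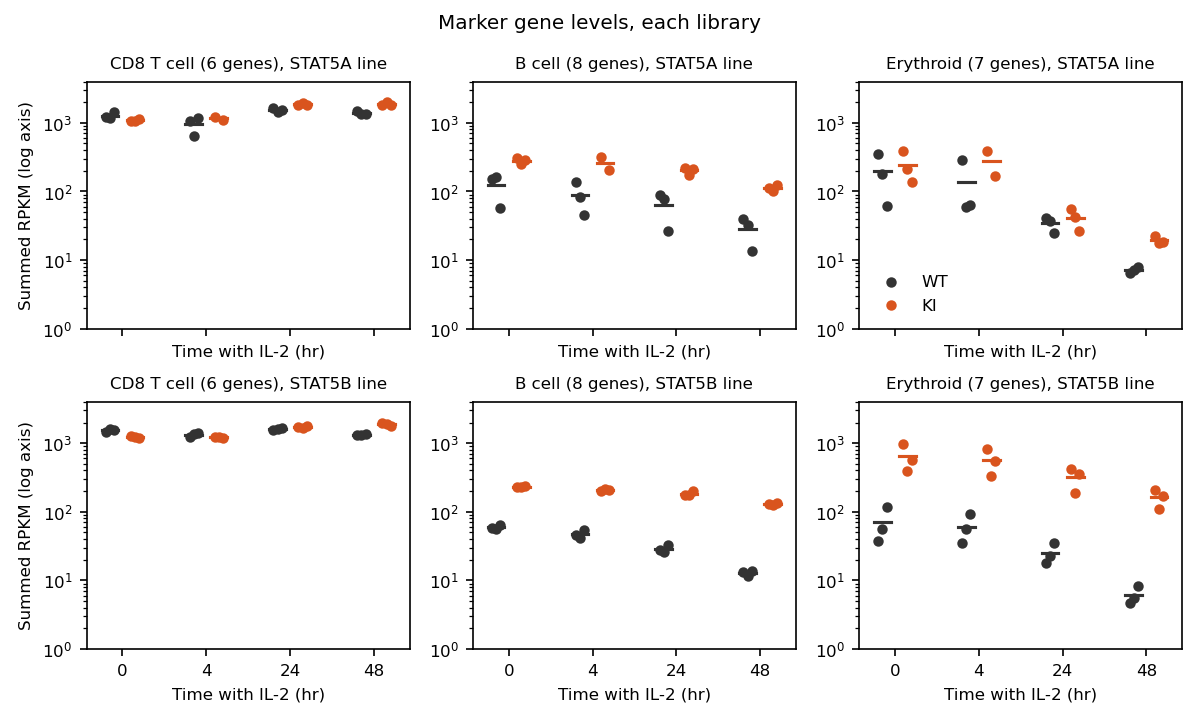
Summed RPKM of marker genes (y axis, log scale) against hours with IL-2 (x axis) for CD8 T cells, B cells and erythroid cells in both lines, 1 point for each of 47 libraries with bars at group means. B cell and erythroid sums of STAT5B KI libraries lie above those of WT at every time, while CD8 T cell sums of KI libraries lie below WT at 0 hr and above WT at 48 hr in both lines.

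In the STAT5A line few members differed between KI and WT cells by the test over 47 libraries. At 0 hr 2 of 82 were lower (0.88% of all genes), with a median log2 difference of -0.19, and 38 members had an unadjusted p under 0.05. The share of all genes with such a p is not given, here or at 24 hr. These unadjusted counts therefore cannot be compared with other genes. On the scale of log2(RPKM + 1) 80 of 82 were below 0, with a median of -0.17 against 0.01 for all genes. In 46 libraries, without replicate 2 of the WT cells at 4 hr, 23 were lower (2.64% of all genes). More members also differed at 0 hr with DESeq2. Fewer did with all 48 libraries, by limma, in a fit of only the groups compared and with the replicate block, as given in the last section. At 4 hr 10 were higher and 3 lower (11.9% and 12.7%), a result that rests on the library that stood apart, since without replicate 2 of the WT cells 1 was higher and none was lower (6.42% and 5.81% of all genes), with a median of 0.07 in place of 0.16. On the scale of log2(RPKM + 1), with that library, the median was 0.49 and 79 of 82 members were above 0, against a median of 0.29 for all genes. The same count of 13 became 28 or 52 without WT replicate 1 or 3, and 0 or 5 without KI replicate 1 or 2, which leaves 1 KI library assumed to vary like the other groups. At 24 hr edgeR found 0 members that differed (9.49% of all genes were higher and 9.01% lower), 1 member had an unadjusted p under 0.05, DESeq2 also found 0, 2 were lower in 46 libraries (13.6% of all genes), and the median was -0.01. At 48 hr 17 were lower (22.8% of all genes were lower), with a median of -0.07, a share not above that of other genes. Fewer members differed at 48 hr with all 48 libraries and by limma on log2(RPKM + 1). More did in a fit of only the groups compared, as given in the last section. The count of 2 at 0 hr became 0 without WT replicate 1 or 3 or KI replicate 1 or 3, and 1 without WT replicate 2.

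In the STAT5B line the members were lower in KI cells before IL-2 and through 24 hr. At 0 hr 53 of 82 were lower and 1 higher (9.26% and 13.6% of all genes), at 4 hr 72 were lower (12.8%), at 24 hr 66 were lower (26.3%) and at 48 hr 28 were lower and 5 higher (30.5% and 33.1%), the last a share of lower genes close to that of all genes. The median differences were -0.31, -0.39, -0.38 and -0.12, and those of all genes 0.07 and 0.10 at the last 2 times. The member higher at 0 hr was *Rps27l* (0.46 ± 0.17, adjusted p = 0.0461), a call lost without any 1 of the 6 libraries compared and kept in 46 libraries (adjusted p = 0.000356). The count of 54 at 0 hr became 34 without KI replicate 3, and that of 72 at 4 hr became 44 without KI replicate 1. By limma on log2(RPKM + 1) these were 9 and 15, and with all 48 libraries 4, 6, 22 and 13 members differed at the 4 times in place of 54, 72, 66 and 33. The share of all genes called in those fits is not given. Their counts therefore do not show whether members lost calls more often than other genes. On that RPKM scale 79 and 80 of 82 members were below 0 at 0 and 4 hr, with medians of -0.25 and -0.28 against 0.02 and 0.03 for all genes. These comparisons share no libraries between times. Within each genotype, however, the replicates kept the order of their erythroid sums at all 4 times. The 4 times are therefore not shown to be independent of each other. The marker sums above differed between the genotypes at all 4.

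*Rplp1* illustrates the early difference. In the STAT5B line at 0 hr it had 3727, 4534 and 4559 RPKM in WT and 3501, 3586 and 2740 in KI cells, each KI library below each WT library, with -0.45 ± 0.116 (adjusted p = 0.00462). At 48 hr it had 2805, 3060 and 2593 in WT and 3049, 2953 and 2790 in KI cells, which overlap, with -0.02 ± 0.116 (adjusted p = 0.871). *Rpl12* was lower by 0.45 at 0 hr (SE 0.0972, adjusted p = 0.000834) and by 0.48 at 4 hr (SE 0.0973, adjusted p = 0.00026), and at 48 hr its difference was 0.12 ± 0.0971 (adjusted p = 0.3).

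The members furthest below WT in STAT5B KI cells at 48 hr were *Rps27l*, *Rps19bp1*, *Rpl7l1* and *Rps2*, the 4 that had risen in STAT5B WT cells by then. Both comparisons use the STAT5B WT libraries at 48 hr, with opposite sign, so this match is not independent. The 4 members were not all lower from the start: at 0 hr their differences were 0.46, -0.02, 0.07 and -0.25, of which only that of *Rps27l*, upward, passed the test. At 24 hr they were lower by 1.01, 0.86, 0.58 and 0.83 in the same order, and passed it. *Rps27l* in the STAT5B line had 155, 161 and 140 RPKM in WT and 60.5, 64.2 and 50.1 in KI cells, lower by 1.46 on the log2 scale (SE 0.167, adjusted p = 1.35e-09). In the STAT5A line it had 127.7, 157.5 and 142.6 in WT and 88.6, 78.5 and 71.3 in KI cells, lower by 0.90 (SE 0.164, adjusted p = 2.84e-05). The groups did not overlap in either line.

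*Rpl7l1* had 48.3, 46.2 and 43.2 RPKM in STAT5B WT and 26.7, 26.2 and 24.2 in KI cells at 48 hr, lower by 0.91 (SE 0.0739, adjusted p = 3.54e-13), and in the STAT5A line it was lower by 0.58 (SE 0.0735, adjusted p = 5.53e-08). *Rps19bp1* was lower by 1.121 (SE 0.0985, adjusted p = 2.88e-12) and by 0.72 (SE 0.0972, adjusted p = 1.64e-07) in the same order. *Rps2* had 2144, 2179 and 2111 RPKM in STAT5B WT and 1343, 1345 and 1141 in KI cells, lower by 0.83 (SE 0.0943, adjusted p = 1.36e-09), and was lower by 0.42 in the STAT5A line (SE 0.0938, adjusted p = 0.000409). *Rpl36al*, which had not passed the test for IL-2 in WT cells, was lower by 0.58 in STAT5B KI cells at 48 hr (SE 0.148, adjusted p = 0.000968). By 2-fold or more, 2 members, *Rps27l* and *Rps19bp1*, were lower in STAT5B KI cells (9.81% of all genes).

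*Rps27* went the other way. In the STAT5B line at 48 hr it had 1278, 1403 and 995 RPKM in WT and 2213, 2029 and 2097 in KI cells, higher by 0.71 (SE 0.178, adjusted p = 0.000779), a call lost with all 48 libraries (0.64, adjusted p = 0.0909). *Rps24*, with 1547, 1608 and 1449 in WT and 2051, 1975 and 1871 in KI cells, was higher by 0.28 (SE 0.105, adjusted p = 0.0207). That call was lost without any 1 of the 6 libraries compared (adjusted p = 0.0554 to 0.192), with TMM factors computed without the members (0.055), with no filter beyond 1 read (0.0952) and with all 48 libraries (0.178), and held in 46 libraries (0.00175). *Rpl13a*, known for leaving the ribosome on interferon signals, and *Rps21* were the remaining members higher at 48 hr beside the row that shares the reads of *Rps27*, and that of *Rpl13a* was lost without WT replicate 3 (adjusted p = 0.0616) and with all 48 libraries (0.369). In the STAT5A line *Rps27* had 1251, 1293 and 1416 in WT and 1511, 1682 and 1620 in KI cells at 48 hr. These groups do not overlap, but the difference of 0.23 ± 0.177 did not pass the test (adjusted p = 0.306). It passed in a fit of only these groups (0.25, adjusted p = 0.0156).

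Ribosome assembly genes and mitochondrial ribosomal proteins were lower in KI cells at 48 hr. All 30 assembly genes were lower in STAT5B KI cells (median -1.32) and 29 in STAT5A KI cells (median -0.75), and 75 and 71 of 76 mitochondrial ribosomal proteins were lower (medians -0.83 and -0.53). *Npm1* was lower by 1.46 in the STAT5B line and by 1.03 in the STAT5A line, and of the 19 other TOP genes 15 were lower and 1, *Tpt1*, was higher in STAT5B KI cells. *Myc* had 45.4, 42.0 and 40.2 RPKM in STAT5B KI cells at 48 hr, lower than WT by 1.201 (SE 0.177, adjusted p = 2.83e-07), and was lower by 0.56 in the STAT5A line (SE 0.174, adjusted p = 0.00867). Of the subunits outside the name rule, *Fau* was higher by 0.22 in STAT5B KI cells (SE 0.0747, adjusted p = 0.0101) and *Rpsa* (-0.20) and *Gnb2l1* (-0.20) did not pass the test. Among the chaperones 5 of 7 were lower in each line and *Grwd1* was lower by 1.56 in the STAT5B line. Of the regulators 6 of 10 were lower in each line and *Eif4ebp2* was higher by 0.20 in the STAT5A line. *Serbp1* was lower by 1.118 and 0.75 and *Cdkn1a* by 1.79 and 1.33 in the STAT5B and STAT5A lines.

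The IL-2 responses at 48 hr were compared directly between genotypes as a difference of differences. In the STAT5B line 23 members had a higher response in KI than in WT cells and 6 a lower one (23.8% and 25.6% of all genes), with a median of 0.19. Leaving out 1 library at a time, 13 to 26 had a higher and 5 to 11 a lower response. In 46 libraries, without replicate 2 of the STAT5A WT cells at 4 hr, 35 were higher and 9 lower (28.4% and 29.0% of all genes). Fewer members differed with all 48 libraries and by limma on log2(RPKM + 1), as given in the last section. *Rps27* had the largest higher response, 1.14 ± 0.251 (adjusted p = 0.00023): it fell from 2713, 3189 and 3113 RPKM to 1278, 1403 and 995 in WT cells, and went from 2595, 2458 and 1899 to 2213, 2029 and 2097 in KI cells. *Rps24* followed with 0.70 ± 0.148 (adjusted p = 0.000142), then *Rps21* (0.60) and *Rpl12* (0.56 ± 0.137, adjusted p = 0.000765). The lowest responses were those of *Rps27l* (-1.92 ± 0.237, adjusted p = 1.54e-08), *Rps19bp1* (-1.10 ± 0.139, adjusted p = 2.57e-08), *Rpl7l1* (-0.98 ± 0.105, adjusted p = 6.7e-10) and *Rps2* (-0.58 ± 0.133, adjusted p = 0.000363). With all 48 libraries the calls of *Rps27* (1.11, adjusted p = 0.0516) and *Rpl12* (0.53, adjusted p = 0.223) were lost. By 2-fold or more 2 rows were higher, both of the shared reads of *Rps27*, and 2 were lower (10.3% and 11.1% of all genes).

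In the STAT5A line 3 members had a higher and 4 a lower response in KI cells (11.8% and 16.2% of all genes), with a median of 0.12. Leaving out 1 library at a time, 0 to 7 had a higher and 3 to 4 a lower response. The lower ones included *Rps27l* (-1.19 ± 0.236, adjusted p = 0.000224), the only member past 2-fold (3.09% of all genes), *Rps19bp1* (-0.78 ± 0.139, adjusted p = 5.66e-05) and *Rpl7l1* (-0.52 ± 0.105, adjusted p = 0.000274), whose call was lost by limma on log2(RPKM + 1) (adjusted p = 0.0748). The higher ones were *Rps13*, *Rpl13a* and *Rps24* (0.43 ± 0.148, adjusted p = 0.0282). The call of *Rps24* was lost in 8 of 12 fits without 1 library (adjusted p = 0.0511 to 0.125), with DESeq2 size factors (0.0643), with no filter beyond 1 read (0.0602) and with all 48 libraries (0.203). *Rps27* had a larger response, 0.57 ± 0.25, that did not pass the test (adjusted p = 0.0843) but did in 46 libraries (0.00438) and in a fit of only the groups compared (0.00533). In 46 libraries 11 were higher and 4 lower (17.1% and 20.6% of all genes). Fewer members differed with all 48 libraries, by limma on log2(RPKM + 1) and with no filter beyond 1 read, as given in the last section. The total of 7 became 4 without replicate 1 or 3 of the WT cells at 0 hr, without replicate 2 of the WT or of the KI cells at 48 hr, and 3 without KI replicate 1 at 0 hr.

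The KI effects at 48 hr were also compared between the lines. Of 82 members 2 differed, both with a lower KI effect in the STAT5B line (7.83% of all genes did so): *Rps2* by -0.41 ± 0.133 (adjusted p = 0.0379) and *Rpl7l1* by -0.33 ± 0.104 (adjusted p = 0.0312). Both calls were lost by limma on log2(RPKM + 1) (adjusted p = 0.376 and 0.432) and with all 48 libraries (0.738 and 0.467). *Rps27l* (-0.57 ± 0.231, adjusted p = 0.109), *Rps27* (0.47 ± 0.25, adjusted p = 0.24) and *Rps19bp1* (-0.40 ± 0.137, adjusted p = 0.0561) did not pass this test. All of them did in 46 libraries (adjusted p = 0.0016, 0.0315 and 0.0217) and in a fit of only the groups compared (0.005, 0.0282 and 0.0168). *Rps19bp1* also passed with DESeq2 (0.0252) and with TMM factors computed without the members (0.0333). In 46 libraries 6 had a lower and 2 a higher KI effect in the STAT5B line (14.1% and 6.34% of all genes). The count of 2 became 0 without WT replicate 1 of either line or KI replicate 3 of the STAT5B line at 48 hr, and 1 without KI replicate 1 or 2 of the STAT5A line or WT replicate 2 of the STAT5B line.

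Across the 16 groups most members, though not all, followed the median course of the members. As a description, the correlation of each gene's group means with the median course of all members over 16 groups was negative for *Rps27l* (-0.36) and *Rpl7l1* (-0.27), near 0 for *Rps19bp1* (0.0045) and low for *Rpl36al* (0.21), *Rps2* (0.42) and *Rps26* (0.49). Without the library that stood apart these were -0.44, -0.41, -0.14, 0.16, 0.23 and 0.56 in the same order. The SD of the log2 group means was 0.74 for *Rps27l* and 0.49 for *Rpl7l1*. The groups share library depth and scaling, which any such correlation contains.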

How the data were processed

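Poly(A) RNA-seq libraries (50-base single-end reads) were mapped to mm10 with TopHat2 2.0.11 per the labels and methods, uniquely mapped reads were kept, and reads on RefSeq exons were counted. The deposited files give raw counts per transcript and RPKM, both made by the authors; the counting program and its use of strand are not given in the sources used here, so reads of overlapping antisense genes cannot be told apart. Bowtie2 2.2.6, SAMtools 0.1.8 and bedtools 2.25.0 are also named in the submitters' processing notes. The study called genes with edgeR. A sample of antibody control chromatin had no file here and was not used.

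Counts of the longest transcript of each symbol in 47 libraries were fitted in edgeR 4.0.16 (R 4.3.3; TMM, filterByExpr with a minimum count of 10, quasi-likelihood test), with 1 mean for each of 16 groups and Benjamini-Hochberg adjustment over 15566 genes in each of 17 comparisons. The third STAT5A KI replicate at 4 hr was left out, and that group has 2 libraries. RPKM is printed per library and was tested only as an alternative, with limma 3.58.1 on log2(RPKM + 1). DESeq2 1.42.0 was another alternative. Named members were the 5 highest and 5 lowest by mean RPKM, the 3 with the largest and the 3 with the smallest fold change in each comparison, those past 2-fold, the paralogues and the stalk genes; *Rpl7*, *Rps13*, *Rps21*, *Rps26* and other standard subunits named outside this rule were chosen after their values were seen. A few genes are not reported here by name, and 2 of them are left out of the heat map. The members and all lists were chosen with earlier results of these data known. On counts simulated for STAT5A WT cells at 48 hr against 0 hr over 15566 genes, the test recovered 10% of genes changed 1.25-fold, 48% at 1.5-fold, 58% at 2-fold and 92% at 4-fold. The changed genes were drawn at random from all genes tested, so recovery of the members was not measured. The median dispersion of single genes was 0.0067 for the members and 0.0140 for all genes.

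Same-numbered libraries deviated together, with every correlation over 0.1, only for STAT5A WT cells at 24 hr against 0 hr (0.23, 0.29 and 0.43) and 48 hr against 0 hr (0.19, 0.14 and 0.21). Pairing there comes from the data, not the labels. Whether same-numbered libraries elsewhere come from the same cells is not stated. No 2 libraries of a group agreed within sampling noise (chi-square per degree of freedom 4.86 to 238 over 46 pairs).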

Additional observations from a re-analysis of the deposited data

Results flagged for a closer look

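The KI effect at 48 hr differed between the lines for 2 members by the test of the difference itself: *Rps2* (-0.41, STAT5B minus STAT5A) and *Rpl7l1* (-0.33), where 7.83% of all genes had a lower effect. Both calls were lost by limma (adjusted p = 0.376 and 0.432) and with all 48 libraries (0.738 and 0.467), the count was 0 without any of 3 single libraries, and in 46 libraries it was 8. The IL-2 response at 48 hr differed between KI and WT cells for 7 members (STAT5A) and 29 members (STAT5B), again by a test of the difference. Of all genes 11.8% had a higher and 16.2% a lower response for STAT5A, against 23.8% and 25.6% for STAT5B, so that the members' totals do not lie above those of other genes. Among members past 2-fold these were *Rps27l* for STAT5A (-1.19) and, for STAT5B, *Rps27l* (-1.92), *Rps19bp1* (-1.10) and *Rps27* (1.14), which is counted on 2 rows, its own and that of *Rps27rt* with the same reads (1.14). Markers of B cells and erythroid cells differ between the genotypes in the same libraries, and their part in these differences was not tested.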

How the results depend on the processing

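The values below are counts of the 82 members that differed in a comparison, with the count reported above in parentheses. For 58 results on single members, 996 values were computed under the alternatives: 904 kept direction and side of the threshold, 70 lost the call, 22 gained it and 0 reversed. DESeq2 size factors in edgeR moved none of the 17 counts by over 1.5 times. The cause of each move was not tested. The share of all genes called is not given in this section. It is given above for 46 libraries, without replicate 2 of the STAT5A WT cells at 4 hr. In the other fits members cannot be compared with other genes. With all 48 libraries, the shallow STAT5A KI library included, the counts for IL-2 in STAT5A WT cells were 23 at 4 hr (68), 29 at 24 hr (69) and 33 at 48 hr (69), and in STAT5B WT cells 3 (23), 13 (63) and 39 (70). For KI against WT they were 0 at 0 hr (2) and 4 at 48 hr (17) in the STAT5A line, and 4 (54), 6 (72), 22 (66) and 13 (33) at the 4 times in the STAT5B line. The difference between lines had 0 (2) and the differences of response 3 (7) and 5 (29), and the STAT5A KI median at 4 hr was -0.23 in place of 0.16. limma on log2(RPKM + 1) gave 34 at 24 hr and 40 at 48 hr in STAT5A WT cells, 3, 18 and 46 in STAT5B WT cells, 0, 59 (13) and 6 for KI against WT at 0, 4 and 48 hr in the STAT5A line, 9 and 15 for KI against WT at 0 and 4 hr in the STAT5B line, 0 between lines, and 4 and 18 for the differences of response.

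DESeq2 gave 38 for STAT5B WT cells at 4 hr and 10 for STAT5A KI cells at 0 hr. With no filter beyond 1 read these were 14 and 1, with 7 for STAT5A KI cells at 4 hr and 4 for the STAT5A difference of response. TMM factors computed without the members gave 1 for STAT5A KI cells at 0 hr. Fits on only the groups compared gave 23 and 43 for WT cells at 4 hr in the STAT5A and STAT5B lines, 0, 0, 2 and 26 for the KI of STAT5A at 0, 4, 24 and 48 hr, 11 between lines, and 20 and 44 for the differences of response. The replicate block was fitted on those groups and gave 5 and 76 at 4 hr, 0, 0 and 1 for STAT5A KI cells at 0, 4 and 24 hr, 10 between lines, and 17 and 48; *Rps27l* (adjusted p = 0.00215) and *Rps27* (0.0363) then passed between lines, and *Rps27* in the STAT5A line for KI against WT at 48 hr (0.0279) and for the difference of response (0.0052). Where the numbers deviated together, pairing gave 79 at 24 hr (69) and 75 at 48 hr (69). Elsewhere the labels give only a shared number. In STAT5B WT cells the erythroid sums still rose from replicate 1 to 3 at every time. They were 38.0, 56.3 and 117.3 RPKM at 0 hr and 4.71, 5.63 and 8.28 at 48 hr. STAT5B KI replicates also kept their order at every time, and those of the STAT5A line did not. Whether same-numbered libraries share cells is not stated, and the main fit takes them as unpaired. In 46 libraries, an alternative chosen after seeing the data, the counts were 48 for STAT5B WT cells at 4 hr, 23 and 2 for STAT5A KI cells at 0 and 24 hr, 8 between lines, and 15 and 44. Counting the reads of *Rps27* and *Rps27rt* once, also chosen after seeing the data, put the share at 0 hr in STAT5A WT cells at 13.1% in place of 13.3%.

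Leaving out 1 library at a time gave 60 to 81, 61 to 67 and 61 to 67 for STAT5A WT cells at 4, 24 and 48 hr, and 5 to 30, 40 to 59 and 57 to 68 for STAT5B WT cells. For KI against WT the ranges were 0 to 3, 0 to 52, 0 to 0 and 14 to 20 in the STAT5A line and 34 to 60, 44 to 64, 53 to 65 and 29 to 39 in the STAT5B line. They were 0 to 3 between lines and 3 to 10 and 21 to 31 for the differences of response. The lowest count of a member in a library used was 185 reads, and the part of depth in these moves was not tested.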
